A study of Mus musculus with 12 samples.

Results

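The 10 immediate early response genes described here were Fos, Fosb, Jun, Junb, Atf3, Egr1, Nr4a1, Ier2, Dusp1 and Dusp8. They were found by symbol among the 55487 genes of the count table, and 10 of 10 passed the expression filter that left 45828 genes for testing. The list was drawn up because Atf3 and Dusp8 varied between room air lungs. Over the 6 room air lungs, Atf3 ran from 6.06 to 26.8 CPM (counts relative to the normalized library size) and Dusp8 from 20.01 to 52.5 CPM. The list was thus selected on these room air values, so for Atf3 and Dusp8 every comparison that uses room air lungs is given as a description, with no test. The other 8 genes were tested, but in the same lungs.

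RNA-Seq was done on whole lungs of 12 C57BL/6J mice at postnatal day (PND) 21. All 12 mice, room air controls included, were miR-30a -/-, a line in which CRISPR/Cas9 removed the whole miR-30a gene, and wild-type lungs were not analysed here. The 4 groups of 3 lungs were room air males, room air females, hyperoxia males and hyperoxia females, where hyperoxia was 95% FiO2 from PND 1 to PND 5 followed by recovery in room air. Pups of several litters had been pooled and redistributed by sex, the labels do not give the litter of a lung, and the lungs were perfused with cold saline and flash frozen. In all 12 lungs, Mir30a had 0 counts, and with no wild-type lung beside them these counts do not check the deletion. Xist had 8834 to 27296 counts in females and 148 to 210 in males, and the sex labels held in 12 of 12 lungs.

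Immediate early genes are switched on within minutes of a stimulus without new protein synthesis, mostly through MAP kinases acting on factors that already sit at the promoter, and their short-lived transcripts soon fall again. Fos, Fosb, Jun, Junb and Atf3 encode bZIP proteins that pair into AP-1 and related dimers. Egr1 and Nr4a1 encode a zinc finger factor and an orphan nuclear receptor, and the dual specificity phosphatases switch MAP kinases off. In whole tissue these transcripts are known to respond to handling and to the time between death and freezing as well as to disease.

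Depth ran from 8763033 to 16741694 counts per lung, so that 3 counts, the floor taken as detectable, stood at 0.179 to 0.342 CPM by raw totals (before the library sizes were normalized), which covers counting error only. The 10 genes had between 66 and 2969 counts in each lung. Markers of alveolar type 2 cells summed to 4008 to 9210 CPM in every lung. Room air male 1 stood apart, with 2296 CPM summed over the 8 of 8 skeletal muscle markers measured, against 106 to 202 CPM in the other 11 lungs. Background, taken as the share of counts on 1768 olfactory and vomeronasal receptor genes, ran from 0.435% in room air female 5 to 1.00% in hyperoxia male 2. Single receptor genes can be transcribed in lung, so this share need not be background alone.

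Levels between genes were compared as CPM per kilobase of exon, averaged over the 12 lungs. Dusp1, which dephosphorylates MAP kinases, had 31.0 CPM per kb, Jun 27.1 and Nr4a1 17.8. Dusp1 was above Jun in both female groups (48.6 against 39.1 in room air and 32.7 against 23.3 in hyperoxia) and below it in both male groups (21.1 against 22.6 and 21.7 against 23.5). Ier2 (14.01), Egr1 (11.2), Fos (10.1) and Junb (9.80) lay in the middle, and Dusp8 (6.27), Atf3 (4.63) and Fosb (4.04) were lowest. This order is of means over all lungs, and Atf3 was below Fosb in both male groups (3.42 against 4.04 in room air and 3.09 against 4.23 in hyperoxia) and above it in both female groups (8.05 against 4.10 and 3.97 against 3.78). The low genes were also the ones with the highest background estimates. Receptor density times exon length amounted to 29.9% of the counts of Fosb, 25.5% of Atf3 and 18.5% of Dusp8, against 3.74% of Dusp1 and 4.29% of Jun. This share differed between groups. For Atf3 it was 10.4% to 18.3% in room air females, 29.8% to 57.6% in room air males, 29.5% to 48.02% in hyperoxia males and 32.1% to 36.2% in hyperoxia females. For Dusp8 it was 6.87% to 14.1% in room air females, 21.3% to 39.4% in room air males, 15.7% to 40.3% in hyperoxia males and 22.3% to 26.6% in hyperoxia females.

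**Figure D1:**
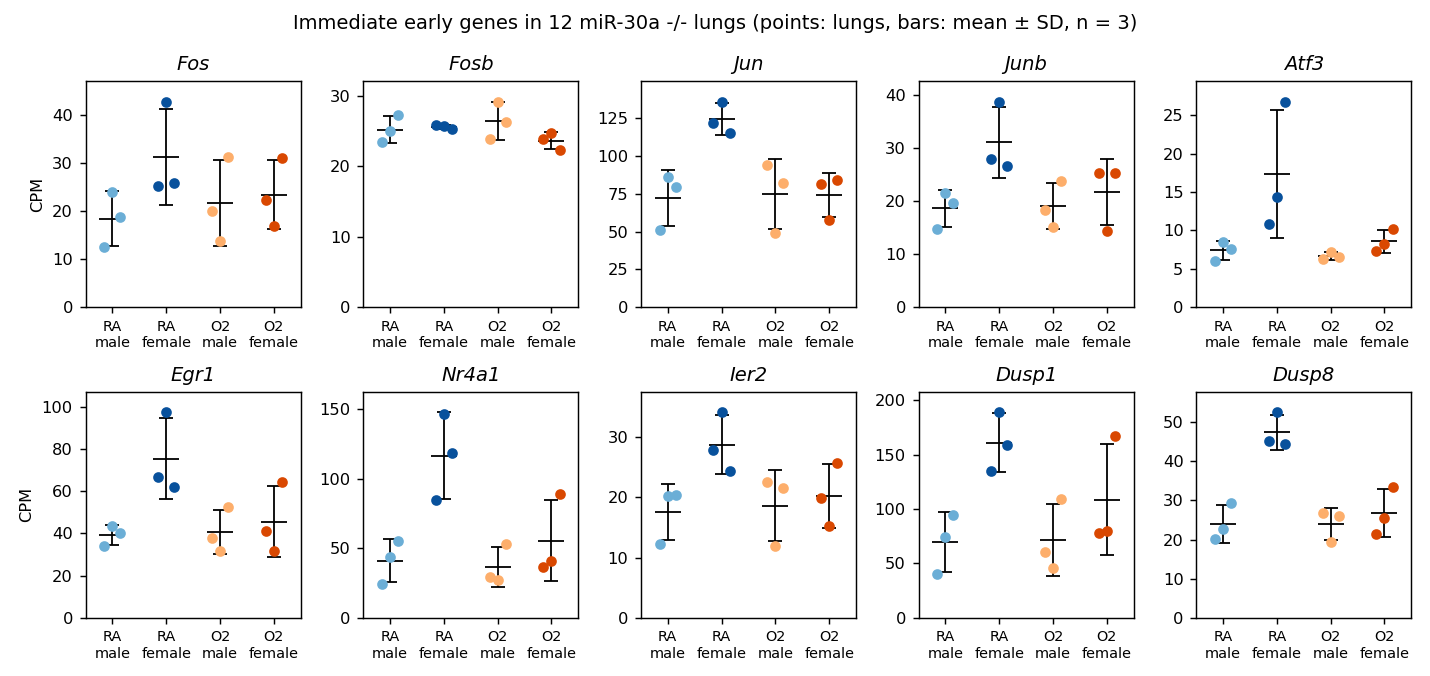
CPM of the 10 genes (y axis, linear from 0) in room air (RA) and hyperoxia (O2) lungs of each sex, 3 points per group, with the mean and SD as bars. In 9 of 10 genes, all but Fosb, the 3 room air females lay above the 3 room air males, while the 2 hyperoxia groups overlapped in all but Atf3.

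In the annotation for mm10 the genes lie on 8 chromosomes. Ier2 (chromosome 8, 84661331 to 84662852) and Junb (84974484 to 84978718) are neighbours at some distance, and Fosb (chromosome 7, 19302696 to 19310051) and Dusp8 (142079490 to 142095843) sit far apart. Jun lies on chromosome 4 (95049034 to 95052222), Fos on 12 (85473890 to 85477273), Nr4a1 on 15 (101254269 to 101274795), Dusp1 on 17 (26505590 to 26562128), Atf3 on 1 (191170296 to 191218039) and Egr1 on 18. The span of Dusp1 includes long transcripts that overlap Ergic1 on the opposite strand.

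Among the AP-1 genes, Fos encodes the partner that cannot pair with itself and needs a Jun protein. Fos had 12.5, 24.1 and 18.8 CPM in room air males 1, 4 and 5, 25.2, 42.9 and 25.9 in room air females 2, 5 and 6, 20.01, 13.7 and 31.4 in hyperoxia males 1, 2 and 3, and 22.3, 16.96 and 31.1 in hyperoxia females 2, 4 and 5. Room air female 5 was the highest lung and room air male 1 the lowest, and hyperoxia lungs overlapped with room air lungs in both sexes. In females, Fos differed by a log2 fold change of -0.42 ± 0.35 (SE) between hyperoxia and room air, within the spread (edgeR adjusted p = 0.572). The value was -0.12 without room air female 5, -0.24 without hyperoxia female 4 and -0.67 without hyperoxia female 5.

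Jun, the central AP-1 subunit, stood at 51.1, 85.9 and 79.3 CPM in room air males, 122, 136 and 116 in room air females, 93.9, 49.3 and 82.0 in hyperoxia males, and 81.3, 57.4 and 84.2 in hyperoxia females, with lungs in the same order as above. Every room air female was above every other lung. Jun had a log2 fold change of -0.74 ± 0.23 (SE) in females after hyperoxia and 0.06 ± 0.23 in males, and neither passed after adjustment (edgeR adjusted p = 0.339 and 1.00). Junb, a Jun relative that often restrains Jun, had 14.7, 21.4 and 19.6 CPM in room air males, 27.8, 38.7 and 26.5 in room air females, 18.3, 15.1 and 23.7 in hyperoxia males, and 25.2, 14.4 and 25.2 in hyperoxia females. The 3 room air females were again the highest lungs, and the log2 fold change in females was -0.52 ± 0.20 (SE, edgeR adjusted p = 0.355), or -0.30 without hyperoxia female 4 and -0.33 without room air female 5. Jun overlaps the antisense gene Junos on the opposite strand (185 to 357 counts per lung), and Junb overlaps Prdx2.

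Fosb did not follow the others. Its CPM were 23.4, 24.95 and 27.2 in room air males, 25.8, 25.8 and 25.3 in room air females, 23.9, 29.2 and 26.2 in hyperoxia males, and 23.8, 24.8 and 22.3 in hyperoxia females. The highest of the 12 lungs was only 1.31 times the lowest, and hyperoxia male 2, among the lowest lungs for the other genes, was the highest here. The female log2 fold change was -0.12 ± 0.14 (SE, edgeR adjusted p = 0.677), although the 3 hyperoxia females all lay under the 3 room air females, and it was -0.08 without hyperoxia female 5.

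Atf3, a stress-induced bZIP factor that acts mostly as a repressor, had 6.06, 8.43 and 7.63 CPM in room air males, 10.8, 14.4 and 26.8 in room air females, 6.28, 7.18 and 6.50 in hyperoxia males, and 7.26, 8.19 and 10.2 in hyperoxia females. Room air female 6 alone was well above the rest, at 339 counts. Hyperoxia against room air gave -1.01 ± 0.23 (log2 fold change, SE) in females and in males -0.15 ± 0.25. Without room air female 6 the female value was -0.57.

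Egr1, a zinc finger factor induced by growth factors and stretch, had 34.2, 43.4 and 40.3 CPM in room air males, 66.8, 97.3 and 61.8 in room air females, 37.7, 31.7 and 52.3 in hyperoxia males, and 41.1, 31.5 and 64.1 in hyperoxia females. Hyperoxia female 5 reached into the range of room air females. Egr1 differed by -0.72 ± 0.23 (log2 fold change, SE) in females (edgeR adjusted p = 0.339) and by 0.05 ± 0.23 in males. Nr4a1, the orphan receptor also called Nur77, had 24.6, 43.5 and 55.5 CPM in room air males, 84.6, 147 and 119 in room air females, 29.4, 27.5 and 53.5 in hyperoxia males, and 36.3, 40.8 and 89.2 in hyperoxia females. Its range was the widest of the 10 genes, since the highest lung had 5.98 times the lowest, and hyperoxia female 5 again overlapped with room air. Mean CPM of Nr4a1 ± SD (n = 3) were 41.2 ± 15.6 and 117 ± 31.2 in room air males and females and 36.8 ± 14.5 and 55.4 ± 29.3 after hyperoxia, and only the room air females stood clear of the room air males. The female log2 fold change of Nr4a1 was -1.07 ± 0.38 (SE, edgeR adjusted p = 0.357).

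Ier2, a small nuclear protein gene, had 12.3, 20.3 and 20.4 CPM in room air males, 27.9, 34.2 and 24.3 in room air females, 22.5, 11.9 and 21.5 in hyperoxia males, and 19.9, 15.2 and 25.7 in hyperoxia females. Hyperoxia female 5 overlapped with room air, and the log2 fold change in females was -0.51 ± 0.22 (SE, edgeR adjusted p = 0.370).

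Of the phosphatases, Dusp1 had 40.3, 74.6 and 94.4 CPM in room air males, 135, 189 and 159 in room air females, 60.3, 46.0 and 109 in hyperoxia males, and 78.0, 79.8 and 167 in hyperoxia females. Hyperoxia female 5 had more Dusp1 than 2 of the 3 room air females, so the groups overlapped and the log2 fold change was -0.57 ± 0.32 (SE, edgeR adjusted p = 0.432), or -1.02 without hyperoxia female 5 and -0.38 without hyperoxia female 2. Dusp8, which prefers JNK and p38, had 20.01, 22.8 and 29.5 CPM in room air males, 45.2, 52.5 and 44.6 in room air females, 26.7, 19.4 and 25.99 in hyperoxia males, and 21.3, 25.4 and 33.3 in hyperoxia females. The room air females stood clear of the other 9 lungs. The log2 fold change of Dusp8 was -0.83 ± 0.17 (SE) in females and 0.00 ± 0.18 in males, where the group means were 24.09 and 24.01 CPM.

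**Figure D2:**
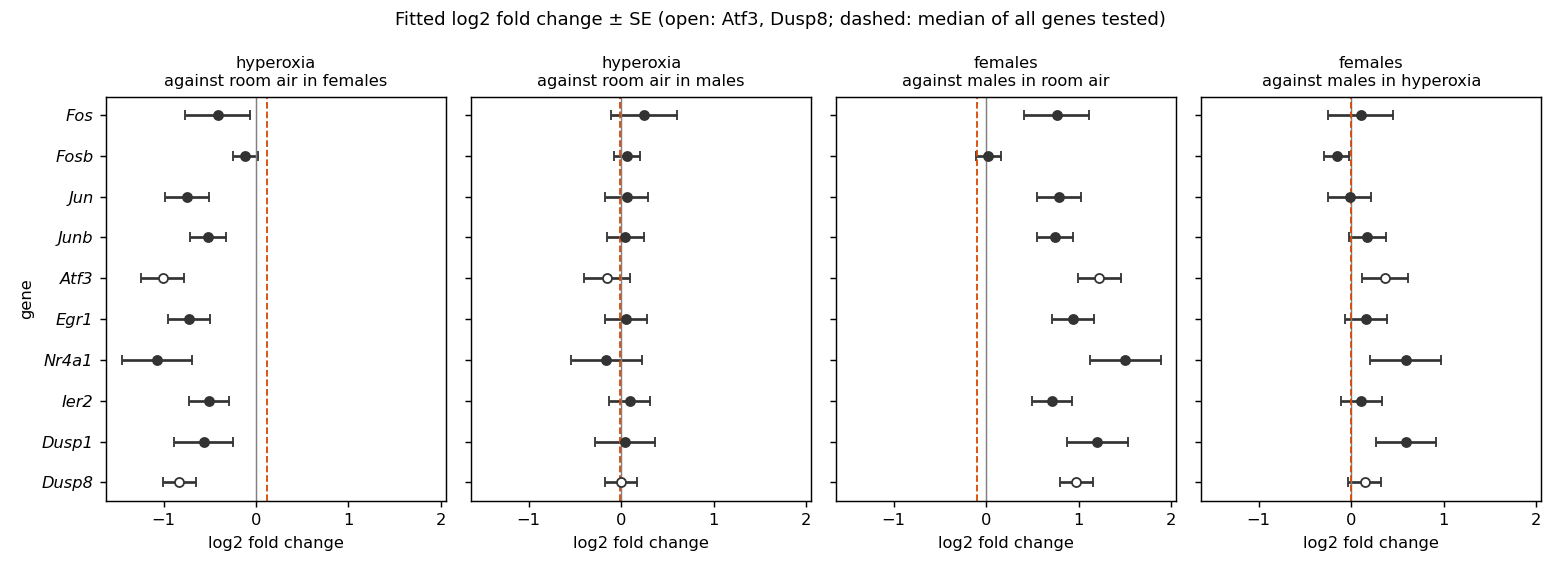
Fitted log2 fold change and SE (x axis) of the 10 genes (y axis) in 4 comparisons, with the median of all genes tested as a dashed line. In females the 10 genes lay between -1.07 and -0.12 after hyperoxia, in males between -0.16 and 0.25, and the open points of Atf3 and Dusp8 carry no test where room air lungs enter.

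Across the list, hyperoxia females were lower than room air females in 10 of 10 genes, with a median log2 fold change of -0.65 against 0.11 over all genes tested, of which 39.0% were lower. The edgeR quasi-likelihood test called 0 of the 8 genes tested (adjusted p under 0.05 and fold change over 1.5), at a background of 0.00218% of all genes. At an unadjusted p under 0.05, 5 of the 8 were lower, where 5.28% of all genes were. The 3 hyperoxia lungs lay under the 3 room air lungs in 5 of 10 genes (Fosb, Jun, Junb, Atf3 and Dusp8), against 6.42% of all genes. These counts use the room air females that led to the choice of the list, so they describe the lungs and are no independent sign of an exposure difference. Depth ran from 12497449 to 16741694 counts in room air females and from 10255870 to 11584337 in hyperoxia females, without overlap. Background shares ran from 0.435% to 0.786% in room air females and from 0.710% to 0.899% in hyperoxia females. With the background share as a covariate the median was -0.44 and with background subtracted -0.45. That covariate moved the genes unequally, to -0.05 for Fos, -0.13 for Ier2, -0.25 for Junb and -0.40 for Jun, while Nr4a1 was at -1.05, Dusp8 at -0.71, Egr1 at -0.51, Dusp1 at -0.47 and Fosb at -0.16, and Atf3 moved to -1.31. Cell type markers differed in the same comparison, with 5 of 5 red cell markers lower (median -1.39, 5 at an unadjusted p under 0.05), 5 of 6 of cardiac muscle (-0.78, 4 at that p) and 4 of 4 of B cells (-0.50, 4 at that p). Markers of alveolar type 2 cells (5 of 5 lower, median -0.56), alveolar type 1 cells (4 of 4, -0.47), fibroblasts (5 of 5, -0.50) and endothelium (5 of 5, -0.43) were also lower, as were 3 of 3 club cell markers (-0.58). At that p were 2 of 4 alveolar type 1 and 1 of 5 endothelium markers, and 0 of alveolar type 2, fibroblast and club cell markers. Other lists were higher, with 4 of 4 T cell markers (median 0.23, 1 at that p), 4 of 4 of neurons (0.35, 1 at that p) and 6 of 8 of skeletal muscle (0.22, 0 at that p). No marker of these 11 lists was called (0 of each). Summed red cell markers ran from 5119 to 7572 CPM in room air females and from 1247 to 2894 in hyperoxia females, without overlap, those of cardiac muscle from 199 to 227 and from 105 to 136, and those of alveolar type 2 cells from 5098 to 9210 and from 4722 to 6017. Summed T cell markers went the other way without overlap, from 46.65 to 53.8 CPM in room air females and from 60.9 to 64.3 in hyperoxia females. The part of these markers and of depth in the difference was not tested. In bulk lung, fewer cells expressing a gene and less RNA per cell cannot be told apart.

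In males the list showed no common direction. A total of 8 genes were higher and 2 lower after hyperoxia, with a median log2 fold change of 0.05 against -0.01 over all genes, and 0 of 8 were called (background 0%), with 0 at an unadjusted p under 0.05. Without room air male 1, the lung with high muscle markers and the lowest immediate early levels, the male median was -0.11. The interaction of sex and hyperoxia had a median of -0.72 against 0.12 over all genes. It was called for 0 of 8 genes (background 0%, smallest edgeR adjusted p = 0.578), with 2 of 8 lower at an unadjusted p under 0.05 against 2.40% of all genes, and its median was -0.53 without room air male 1, -0.44 with the background share as a covariate and -0.51 with background subtracted. In the interaction, 5 of 5 alveolar type 2 markers (median -0.72) and 4 of 4 alveolar type 1 markers (-0.56) were lower. Endothelium was lower in 5 of 5 (-0.50), B cells in 4 of 4 (-0.49) and red cells in 5 of 5 (-0.48). Skeletal muscle was higher in 8 of 8 (2.10), neurons in 4 of 4 (0.44) and T cells in 4 of 4 (0.32). No marker was called, and their part in the interaction was not tested. Over both sexes, 10 of 10 genes were lower after hyperoxia, with a median of -0.30, and 0 of 8 were called (background 0.0415%), with 3 of 8 lower at an unadjusted p under 0.05 against 2.52% of all genes. This median was -0.20 without hyperoxia male 2, and 3 of 5 red cell markers were called lower over both sexes (median -1.24). Cardiac muscle markers were lower in 5 of 6 (median -0.50, 5 at an unadjusted p under 0.05). B cell markers were lower in 4 of 4 (-0.26, 3 at that p). Alveolar type 2 and endothelium markers were lower in 5 of 5 of each list (-0.20 in each), while T cell markers were higher in 4 of 4 (0.07). The interaction and this comparison use the room air lungs that led to the choice of the list. Their counts are thus no independent sign of an exposure difference.

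Between the sexes, the room air lungs are described without a test, since Atf3 and Dusp8 were chosen for varying among them. In these lungs 9 of 10 genes did not overlap between females and males, against 5.60% of all genes, and the median log2 difference was 0.86, from 0.02 (Fosb) to 1.504 (Nr4a1). Alveolar type 2 (5 of 5, median 0.55), alveolar type 1 (4 of 4, 0.43) and club cell markers (3 of 3, 0.44) were also higher in room air females. So were those of B cells (4 of 4, 0.41) and endothelium (5 of 5, 0.36). Of T cell and neuron markers 0 of 4 each were higher (-0.09 and -0.28), and of skeletal muscle 1 of 8 (-1.92). Over both exposures, females were higher in 9 of 10 genes (median 0.51), with 6 of 8 at an unadjusted p under 0.05 against 4.05% of all genes, and 0 of 8 were called (background 1.22%). This comparison includes the room air lungs that led to the choice of the list. Its counts and calls thus describe the lungs and are no independent sign of a sex difference. Dusp1 was nearest the threshold, at 0.90 ± 0.23 (SE, edgeR adjusted p = 0.0509). With TMM normalization, Dusp1 (edgeR adjusted p = 0.0389) and Nr4a1 (0.0161) were called, beside 706 of all genes. With 1 lung left out, 0 to 3 of the 8 were called, beside 476 to 687 of all genes, with 3 called without hyperoxia female 4. In the comparison over both exposures, 7 of 8 skeletal muscle markers were lower in females (median -0.93), with room air male 1 far above the other lungs, and 5 of 6 cardiac muscle markers were higher (median 0.21, 3 at an unadjusted p under 0.05). Alveolar type 2 (5 of 5, median 0.18) and alveolar type 1 markers (4 of 4, 0.18) were also higher in females. So were those of club cells (3 of 3, 0.22) and B cells (4 of 4, 0.18). Fibroblast (5 of 5, 0.11) and endothelium markers (5 of 5, 0.095) were higher too, while 5 of 5 red cell markers were lower (-0.15). No marker of these lists was called (0 of each). The part of these markers in the sex difference was not tested. Background shares ran from 0.681% to 0.955% in room air males and from 0.547% to 1.00% in hyperoxia males, beside the female shares above. Depth ran from 11722513 to 11966653 counts in room air males, below every room air female, and from 8763033 to 13630152 in hyperoxia males. The part of depth was not tested. The median of the 10 genes was 0.45 without room air male 1, 0.42 with the background share as a covariate and 0.52 with background subtracted. The 6 hyperoxia lungs gave none of the room air values that chose the list. Earlier results were known when the list was made, and this comparison was added after the data were seen. In these hyperoxia lungs 8 of 10 genes were higher in females with a median of 0.16, 0 of 10 were called (background 0.696%) and 0 of 10 had an unadjusted p under 0.05. This median was 0.28 with background subtracted and 0.22 with the background share as a covariate. It was 0.01 without hyperoxia male 2, -0.07 without hyperoxia female 5 and 0.36 without hyperoxia male 3. Only Atf3 did not overlap between the sexes in hyperoxia, where 5.78% of all genes were higher in females without overlap, and its difference was 0.37 ± 0.25 (SE, edgeR adjusted p = 1.00).

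**Figure D3:**
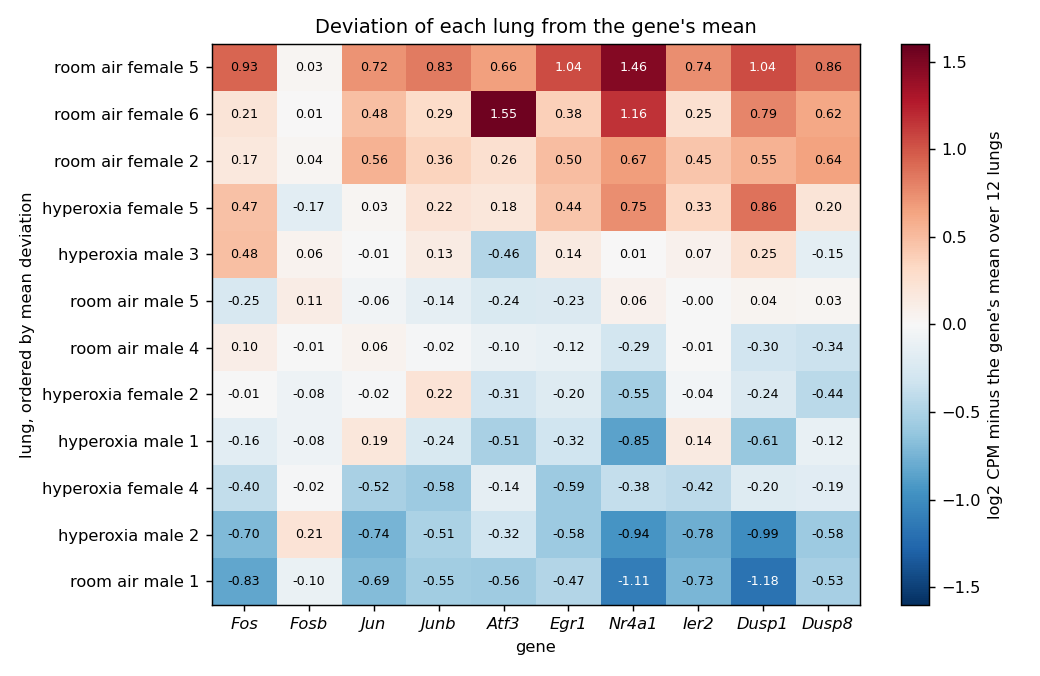
Log2 CPM of each gene minus its mean over the 12 lungs (color, printed in each cell), with the lungs as rows ordered by their mean over the 10 genes. The 3 room air females are the top rows, room air male 1 and hyperoxia male 2 are the bottom rows, and Fosb stays near 0 in every lung.

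Lungs of one group differed widely. Ordered by the mean log2 deviation over the 10 genes, the top lungs were room air females 5 (0.83), 6 (0.57) and 2 (0.42), then hyperoxia female 5 (0.33) and hyperoxia male 3 (0.05). At the other end were hyperoxia female 4 (-0.34), hyperoxia male 2 (-0.59) and room air male 1 (-0.68). All 10 genes were above their mean in each room air female, while hyperoxia females ranged from 0 of 10 (lung 4) to 9 of 10 (lung 5). Within groups, the SD of log2 CPM was 0.57 for Nr4a1, 0.56 for Dusp1 and 0.49 for Fos, where the median of 21397 genes with a mean of at least 5 CPM was 0.22. In the 6 hyperoxia lungs alone, outside the room air values that chose the list, 8 of 10 genes were above the median SD of that set (Fosb at 0.11 and Atf3 at 0.19 were not).

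The bases before the start sites are shown because most of these genes varied together from lung to lung while Fosb and Atf3 did not. RefSeq windows (GRCm38.p6) were matched for 8 of 10 genes, and the 250 bases upstream were searched on both strands for the cAMP response element (CRE, TGACGTCA), its half-site TGACG outside a full CRE, the AP-1 site TGANTCA, the EGR site GCGNGGGCG, TATAAA and the CArG box bound by serum response factor. Capitals mark the matches, and positions count back from the start site, the last base printed being -1. Dusp1 (chr17:26508473-26508722, minus strand) and Dusp8 (chr7:142095285-142095534, minus strand) hold a full CRE, which 1.55% of 32817 windows have, at -143 in Dusp1 and at -107 and -63 in Dusp8. Dusp1 also holds a half-site at -191.
Dusp1: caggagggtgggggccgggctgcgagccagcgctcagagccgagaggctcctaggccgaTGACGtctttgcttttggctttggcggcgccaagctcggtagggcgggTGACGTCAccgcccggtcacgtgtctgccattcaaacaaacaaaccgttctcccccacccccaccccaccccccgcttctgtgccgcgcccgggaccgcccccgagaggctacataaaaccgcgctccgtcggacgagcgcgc
Dusp8: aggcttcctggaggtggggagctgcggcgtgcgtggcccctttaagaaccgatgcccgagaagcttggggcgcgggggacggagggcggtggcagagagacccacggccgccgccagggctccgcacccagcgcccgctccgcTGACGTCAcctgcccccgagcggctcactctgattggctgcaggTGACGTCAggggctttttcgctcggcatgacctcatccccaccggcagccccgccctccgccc
Fos (chr12:85473640-85473889, plus strand) and Nr4a1 (chr15:101266596-101266845, plus strand) hold half-sites, 2 in Fos and 4 on the other strand in Nr4a1, which read CGTCA below, as do 16.6% of windows, and Fos has TATAAA at -33 (12.4% of windows).
Fos: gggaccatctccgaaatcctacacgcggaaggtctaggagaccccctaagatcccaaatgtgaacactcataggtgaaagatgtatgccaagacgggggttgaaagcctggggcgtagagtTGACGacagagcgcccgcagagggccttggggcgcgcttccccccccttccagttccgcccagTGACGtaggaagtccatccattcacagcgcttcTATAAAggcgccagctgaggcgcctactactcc
Nr4a1: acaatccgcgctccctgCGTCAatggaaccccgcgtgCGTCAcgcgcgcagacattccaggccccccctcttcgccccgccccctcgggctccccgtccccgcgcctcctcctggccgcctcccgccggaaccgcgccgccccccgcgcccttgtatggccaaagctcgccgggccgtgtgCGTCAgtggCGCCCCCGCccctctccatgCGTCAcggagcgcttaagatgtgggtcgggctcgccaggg
Fosb (chr7:19310046-19310295, minus strand) holds 1 half-site at -60 and an EGR site at -50, which Nr4a1 also has and 4.70% of windows do.
Fosb: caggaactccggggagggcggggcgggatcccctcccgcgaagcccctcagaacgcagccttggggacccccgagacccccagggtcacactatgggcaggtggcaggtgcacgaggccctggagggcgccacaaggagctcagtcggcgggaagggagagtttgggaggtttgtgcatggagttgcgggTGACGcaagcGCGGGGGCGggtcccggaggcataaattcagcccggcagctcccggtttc
Atf3 (chr1:191183334-191183583, minus strand) holds 1 half-site, on the other strand at -7 to -3.
Atf3: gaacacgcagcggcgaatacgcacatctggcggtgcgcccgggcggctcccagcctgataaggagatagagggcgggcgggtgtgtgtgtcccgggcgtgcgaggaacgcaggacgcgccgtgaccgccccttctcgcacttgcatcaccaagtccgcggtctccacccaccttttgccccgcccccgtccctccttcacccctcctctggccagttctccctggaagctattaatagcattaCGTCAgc
With Junb, half-sites were found in 6 of the 8 windows. No AP-1 site (6.75% of windows) and no CArG box (1.47%) was matched in these 8 windows, which says only that those letters are not in these 250 bases.

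Within groups, most of the genes varied together. Over the 45 pairs of genes, the median Pearson r of log2 CPM deviations from the group mean was 0.67 (Spearman rho 0.64) in 12 lungs, 0.64 in the 6 hyperoxia lungs alone and 0.57 without room air male 1. Dusp1 and Nr4a1 were the closest pair (r = 0.97, rho = 0.97), then Jun and Ier2 (0.96, rho = 0.89) and Fos and Egr1 (0.92, rho = 0.92). A total of 16 pairs exceeded 0.8. Fosb had a median r of -0.19 with the other 9 genes and Atf3 of 0.05, and the 28 pairs without either ran from 0.47 upward, with a median of 0.80. All pairs share their libraries, and therefore depth and background, so these values describe 12 lungs.

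**Figure D4:**
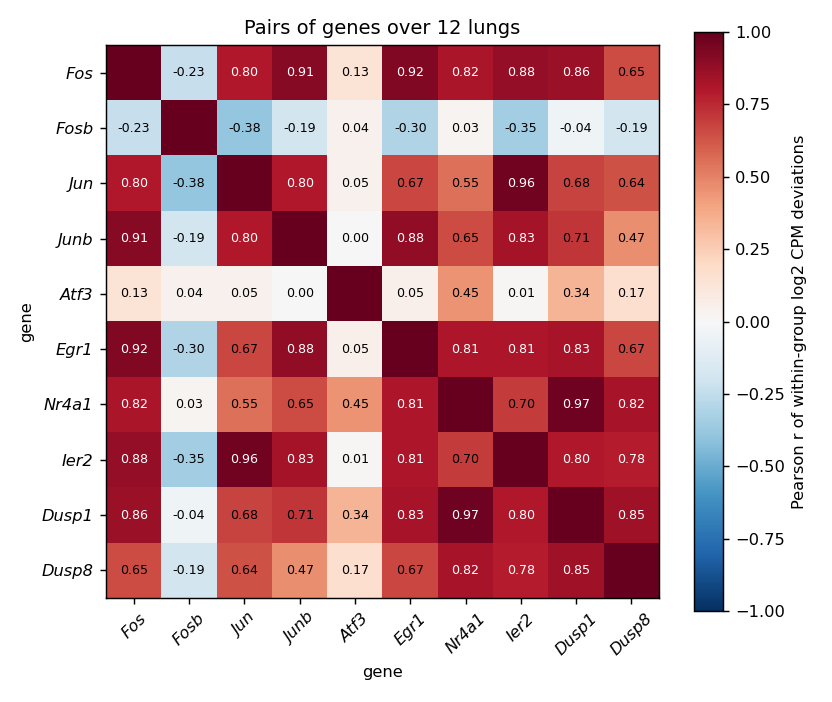
Pearson r (color, printed in each cell) of within-group log2 CPM deviations between each pair of the 10 genes (both axes) over 12 lungs. Dusp1 and Nr4a1 reach 0.97, while the row of Fosb runs from -0.38 to 0.04 and that of Atf3 from 0.00 to 0.45.

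An immediate early index was formed for each lung as the mean of the 10 genes' deviations, each divided by its SD. The genes outside the list with the most similar pattern, of 21387 compared, were Per1 (r = 0.97), Dll1 (0.96), Sgk1 (0.95), Klhl2 (0.93), Klf4 (0.93), Klf2 (0.93), Slc10a6 (0.93), Etohd2 (0.93), Slc10a7 (0.93) and Zfp36 (0.93). Per1 is a clock gene, Sgk1 a kinase gene induced by glucocorticoids, Klf2 and Klf4 are Kruppel-like factor genes, and Zfp36 promotes the decay of short-lived transcripts. An r over 0.8 was reached by 106 genes (0.496%), and without hyperoxia female 5, the lung with the highest index, 2 of these 10 genes stayed in the top 10 and 10 in the top 100.

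Depth, background and muscle markers also varied with this index. Over 12 lungs, r of the index with log2 depth was 0.50 (rho 0.53), with the background share -0.34 (rho -0.26) and with summed skeletal muscle markers -0.64 (rho -0.52). Leaving out the 2 lungs farthest from the median of each measure gave 0.44, -0.43 and -0.44, and without room air male 1 the values for background and muscle were -0.22 and -0.28. Skeletal muscle markers ran from 147 to 2296 CPM in room air males, 106 to 173 in room air females, 126 to 202 in hyperoxia males and 157 to 182 in hyperoxia females, and 8 of 8 were above 0 in every lung. The other 15 marker lists had r between -0.56 (cardiac muscle) and 0.58 (alveolar type 1), and between -0.65 (mesothelium) and 0.51 (neutrophils) without the 2 farthest lungs. Alveolar type 1 went from 0.58 to 0.24, endothelium from 0.56 to 0.21 and smooth muscle from 0.07 to -0.64. The part of these measures in the level of the immediate early genes was not tested.

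**Figure D5:**
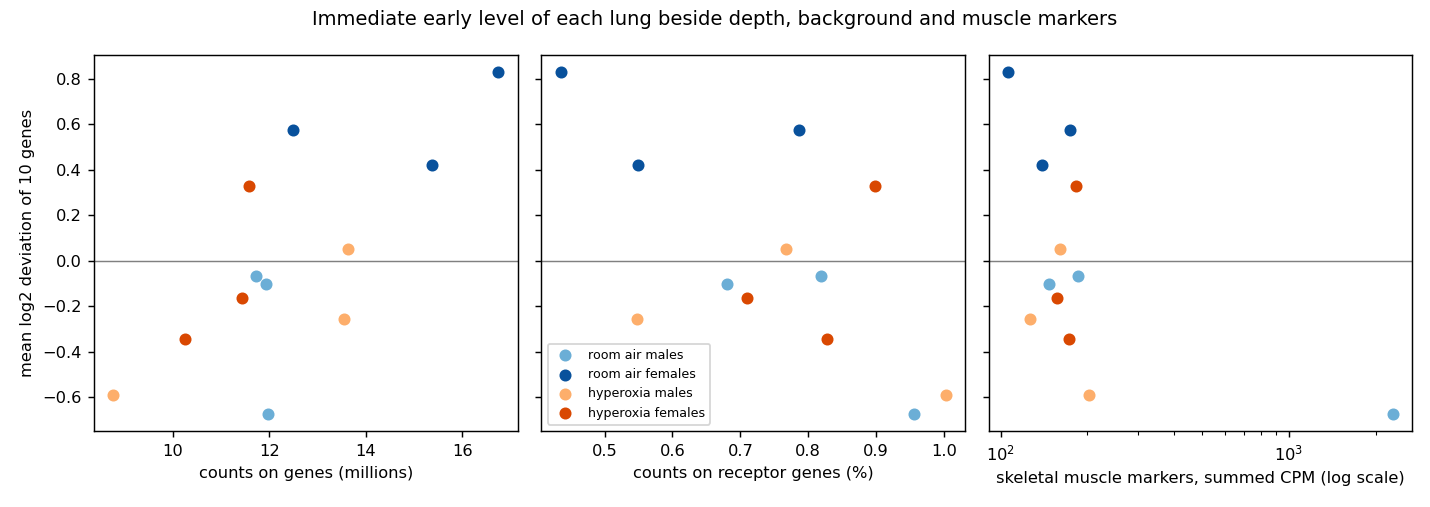
Mean log2 deviation of the 10 genes from their means over 12 lungs (y axis) beside depth as counts on genes, the share of counts on receptor genes in percent, and summed skeletal muscle markers in CPM on a log scale (x axes). Room air female 5 joins the greatest depth with the lowest receptor share and the highest level, and room air male 1 stands alone at 2296 CPM of muscle markers.

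Related genes were read from lists put together with earlier results known. In females, 12.6% of all genes tested had an unadjusted p under 0.05 in either direction. Of 16 other immediate early transcription factors, 12 were lower and 4 higher in females after hyperoxia (median -0.39), with 8 at an unadjusted p under 0.05, and 0 were called. Klf4 and Klf2 had the female log2 fold changes -1.05 (edgeR adjusted p = 0.234) and -0.96 (0.292). Over both exposures, Klf2 and Klf4 were called higher in females, at 0.81 (edgeR adjusted p = 0.0255) and 0.76 (0.0325), where 1.22% of all genes were called in either direction. In room air their mean CPM were 238 and 184 in females against 106 and 81.9 in males. In the hyperoxia lungs alone the differences were 0.44 and 0.36 (edgeR unadjusted p = 0.118 and 0.188), and neither was called. Both genes followed the index (r = 0.93), and the room air lungs led to the choice of the list. Among 25 other early response genes, 22 were lower in hyperoxia females (median -0.42, 11 at an unadjusted p under 0.05), with Errfi1, a feedback inhibitor of the EGF receptor, at -0.62 and Btg2, an antiproliferative gene, at -0.53. None of the 25 was called in any contrast, and 7 had r over 0.8 with the index.

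The 8 other MAP kinase phosphatases had a median of -0.21 in hyperoxia females, and Dusp9, an X-linked phosphatase gene, was called higher in females over both exposures (0.91, edgeR adjusted p = 0.000206). Upstream kinases and transcription factors were lower in 20 of 20 (median -0.36, against the 39.0% of all genes that were lower, 7 at an unadjusted p under 0.05), and the 8 bZIP partners tested in 8 of 8 (median -0.40). The 7 heat shock genes were lower in 7 of 7 (median -0.83, 7 at an unadjusted p under 0.05), but their median r with the index was 0.04. For 7 glucocorticoid-induced genes the female median was 0.02 and for 6 hypoxia targets -0.13, with 0 called in either. The median r of the 7 glucocorticoid-induced genes with the index was 0.46. Only Tsc22d3, a glucocorticoid-induced leucine zipper gene, had r over 0.8 (0.92), while Zbtb16 stood at 0.63, Fkbp5 at 0.51 and Mt2 at 0.09.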

How the data were processed

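RNA-Seq counts of 12 whole lungs were used. The authors used Trim Galore for trimming and STAR for mapping to mm10 (GRCm38), and deposited raw read counts per gene from featureCounts, per the labels without versions. As library kit, QIAseq Stranded Total RNA is given in the methods but NEBNext Ultra II Directional in the labels. Group, sex and animal number came from the titles, and 0 columns were left without a sample.

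Counts were fitted with edgeR 4.0.16 (R 4.3.3) by a robust quasi-likelihood model of 4 groups with upper-quartile normalization after filterByExpr, and p-values were adjusted by Benjamini-Hochberg over all 45828 genes. The biological coefficient of variation was 0.177. Log2 CPM used a prior count of 2. RUVr was not in the main model, since its number of factors is not stated. The members and lists were chosen with earlier results of these data known. The genes named beside them were the 10 closest to the index, and called, abundant or variable genes of each list. The comparison of the sexes in hyperoxia was added after the data were seen. Positions and exon lengths came from GENCODE M21 and upstream bases from RefSeq. The fit was tested on simulated data. Alternatives were TMM, RUVr, DESeq2 1.42.0, other filters, the background share, females alone, the replicate block and each lung left out. P-values measure the spread between lungs, whose litters are not given. Summaries were computed in Python 3.11.15 with pandas 2.3.3, and plots drawn in matplotlib 3.10.9.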

Additional observations from a re-analysis of the deposited data

How the results depend on the processing

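Direction held in every alternative for the median of the 10 genes in females after hyperoxia (-0.93 to -0.46 with 1 lung left out, the first without hyperoxia female 5) and for the difference between the sexes over both exposures (0.40 to 0.61). In males the median ran from -0.13 to 0.20, and between the sexes in hyperoxia from -0.07 (without hyperoxia female 5) to 0.36 (without hyperoxia male 3), on both sides of 0. Of the 8 genes tested, 1 was called in females with 1 or 3 RUVr factors (Jun both times) and 1 in the interaction with 3 factors (Jun). Over both exposures, 2 were called between the sexes with TMM and 2 with no filter (Dusp1 and Nr4a1 in both), and 0 to 3 with 1 lung left out. These calls use the room air lungs that led to the choice of the list. The cause was not tested.

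Numbers of all genes called depended far more on the model. In females, 1 gene was called in the main model, 0 with TMM, 8 with no filter, 1907, 1907 and 2053 with 1, 2 and 3 RUVr factors, 21 with the background share as a covariate, 44 with DESeq2, 80 in the 6 females alone, 0 with background subtracted and 0 to 206 with 1 lung left out (206 without room air female 6). In males they were 14, 49 and 75 with RUVr, 6 with the background share, 2 in the 6 males alone and 0 to 1 with 1 lung left out. Over both sexes, RUVr gave 91, 102 and 125, DESeq2 40, background subtraction 9 and single lungs left out 3 to 37. The interaction had 2112, 2162 and 2394 calls with RUVr, the sexes over both exposures 1004 with no filter, 266 with 10 counts in every library, 1002, 1029 and 1091 with RUVr and 976 with the background share, and the sexes in hyperoxia 148 with 10 counts, 676, 682 and 737 with RUVr, 582 with the background share, 145 with background subtracted and 139 to 422 with 1 lung left out.

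With animal number as a replicate block in the 6 females, 1 of the 8 genes was called (Nr4a1, -0.93, edgeR adjusted p = 0.0290) and 451 of all genes. The numbers do not pair these lungs: deviations of lungs numbered 2 correlated at 0.19 and of those numbered 5 at -0.33. Males share too few numbers for such a fit. The lowest count of the 10 genes in any lung was 66, against a floor of 3 counts. The background estimate, receptor density times exon length, amounted to as much as 57.6% of the counts of Atf3 in room air male 1.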
